A study of Drosophila melanogaster with 3 samples.

Results

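The innate immune genes of the fruit fly described here were 10 genes taken by name, 5 of the signalling pathways (Rel, Dif, cact, imd and PGRP-LC) and 5 that encode antimicrobial peptides (AttA, AttB, AttD, Drs and Mtk), out of 13945 protein-coding genes on the 6 chromosome arms. For each gene every peak of tagged E(bx) with its summit in the gene or within 2 kb of it was taken. E(bx), or NURF301, is the largest subunit of the nucleosome remodelling complex NURF. Chromatin of whole Drosophila melanogaster embryos (0 to 16 h old, males and females pooled) was immunoprecipitated and sequenced. All embryos were of a transgenic line, from 1 donor stock, whose E(bx) carries green fluorescent protein at the C terminus. The 3 libraries are biological replicates of a single group, and the labels name no infected animals, no treatment, and no dissected fat body or blood cells, so values are averages over the tissues of the embryo.

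Flies answer infection mainly through the Toll and IMD pathways. In the IMD pathway the membrane receptor PGRP-LC binds bacterial peptidoglycan and signals through the adaptor Imd to the NF-kappaB factor Relish, the product of Rel. In the Toll pathway the ligand Spätzle activates the receptor Toll, the inhibitor Cactus is degraded, and the NF-kappaB factors Dif and Dorsal enter the nucleus. The same Toll and Cactus proteins pattern the dorsoventral axis of the early embryo. Both pathways end in genes for secreted antimicrobial peptides, which are kept low in the absence of infection and strongly induced in the fat body after it.

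Peaks came from the authors' reproducible set (the optimal set by irreproducible discovery rate, 9708 peaks on the dm6 build), a longer list called on the pooled reads (29999 peaks on the 6 arms) and a list for each replicate (29999, 28972 and 30000 peaks). The longer lists include background by design. The signal value printed below is the score given by the authors' peak caller. Its scale is unstated, and peaks are therefore described by it and ranked within 1 list only. The reproducible set is the top of the pooled list, with a lowest signal value of 156.01, while the next pooled peak had 155.96. Replicate 3 stood apart from the others. Matching the best 9708 peaks of each library within 200 bp, replicates 1 and 2 shared 90.6 to 90.8% of their peaks with each other, while comparisons that involved replicate 3 gave 80.0 to 84.6%. The files give no read totals, so depth is unknown. Peaks were called against a control, whose data were not analysed here.

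In the reproducible set, tagged E(bx) had a peak at the promoters of 3 of the 5 pathway genes, Rel, cact and imd, and none at those of Dif and PGRP-LC. Of the 5 antimicrobial peptide genes 1, AttD, had a reproducible summit within 500 bp of its transcription start site (TSS), and that summit lay inside a neighbouring transfer RNA gene. A promoter peak in this sense was present at 50.3% of all protein-coding genes, at 62.8% of those of 3 kb or more and at 24.7% of those shorter than 1 kb, length classes added after the data had been seen. All 5 pathway genes are longer than 3 kb (3795 to 19914 bp) and all 5 peptide genes are shorter than 1 kb (268 to 943 bp). When a summit counted only for the gene with the nearest TSS, 3 pathway genes and 0 peptide genes kept a promoter peak, against 41.2% of all protein-coding genes. These are counts of 10 genes chosen by name with results of these data known, and no test was made over them.

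A reproducible summit in the gene or within 2 kb was present at the same 3 pathway genes and at 2 peptide genes, AttD and Drs. The share was 65.8% for all protein-coding genes, 80.0% for those of 3 kb or more and 39.7% for those shorter than 1 kb. In all, 9 reproducible summits belonged to these 5 genes, 4 to cact, 2 to imd and 1 each to Rel, AttD and Drs. Each of these 5 genes' strongest summit had a summit within 200 bp in all 3 replicate lists. The reproducible set was made from the pooled and replicate lists, so such a match does not set these genes apart. Over all protein-coding genes with a promoter peak, 91.6% had the strongest one matched among the best peaks of all 3 replicates. In the longer pooled list 9 of the 10 genes had a summit, all but Mtk, beside 76.5% of all protein-coding genes. The replicate lists held a summit at 9, 10 and 7 of the 10 genes in replicates 1, 2 and 3, and at 82.1, 82.8 and 72.6% of all protein-coding genes. Genes without a summit were Mtk in replicate 1, and Dif, PGRP-LC and Mtk in replicate 3.

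**Figure D1:**
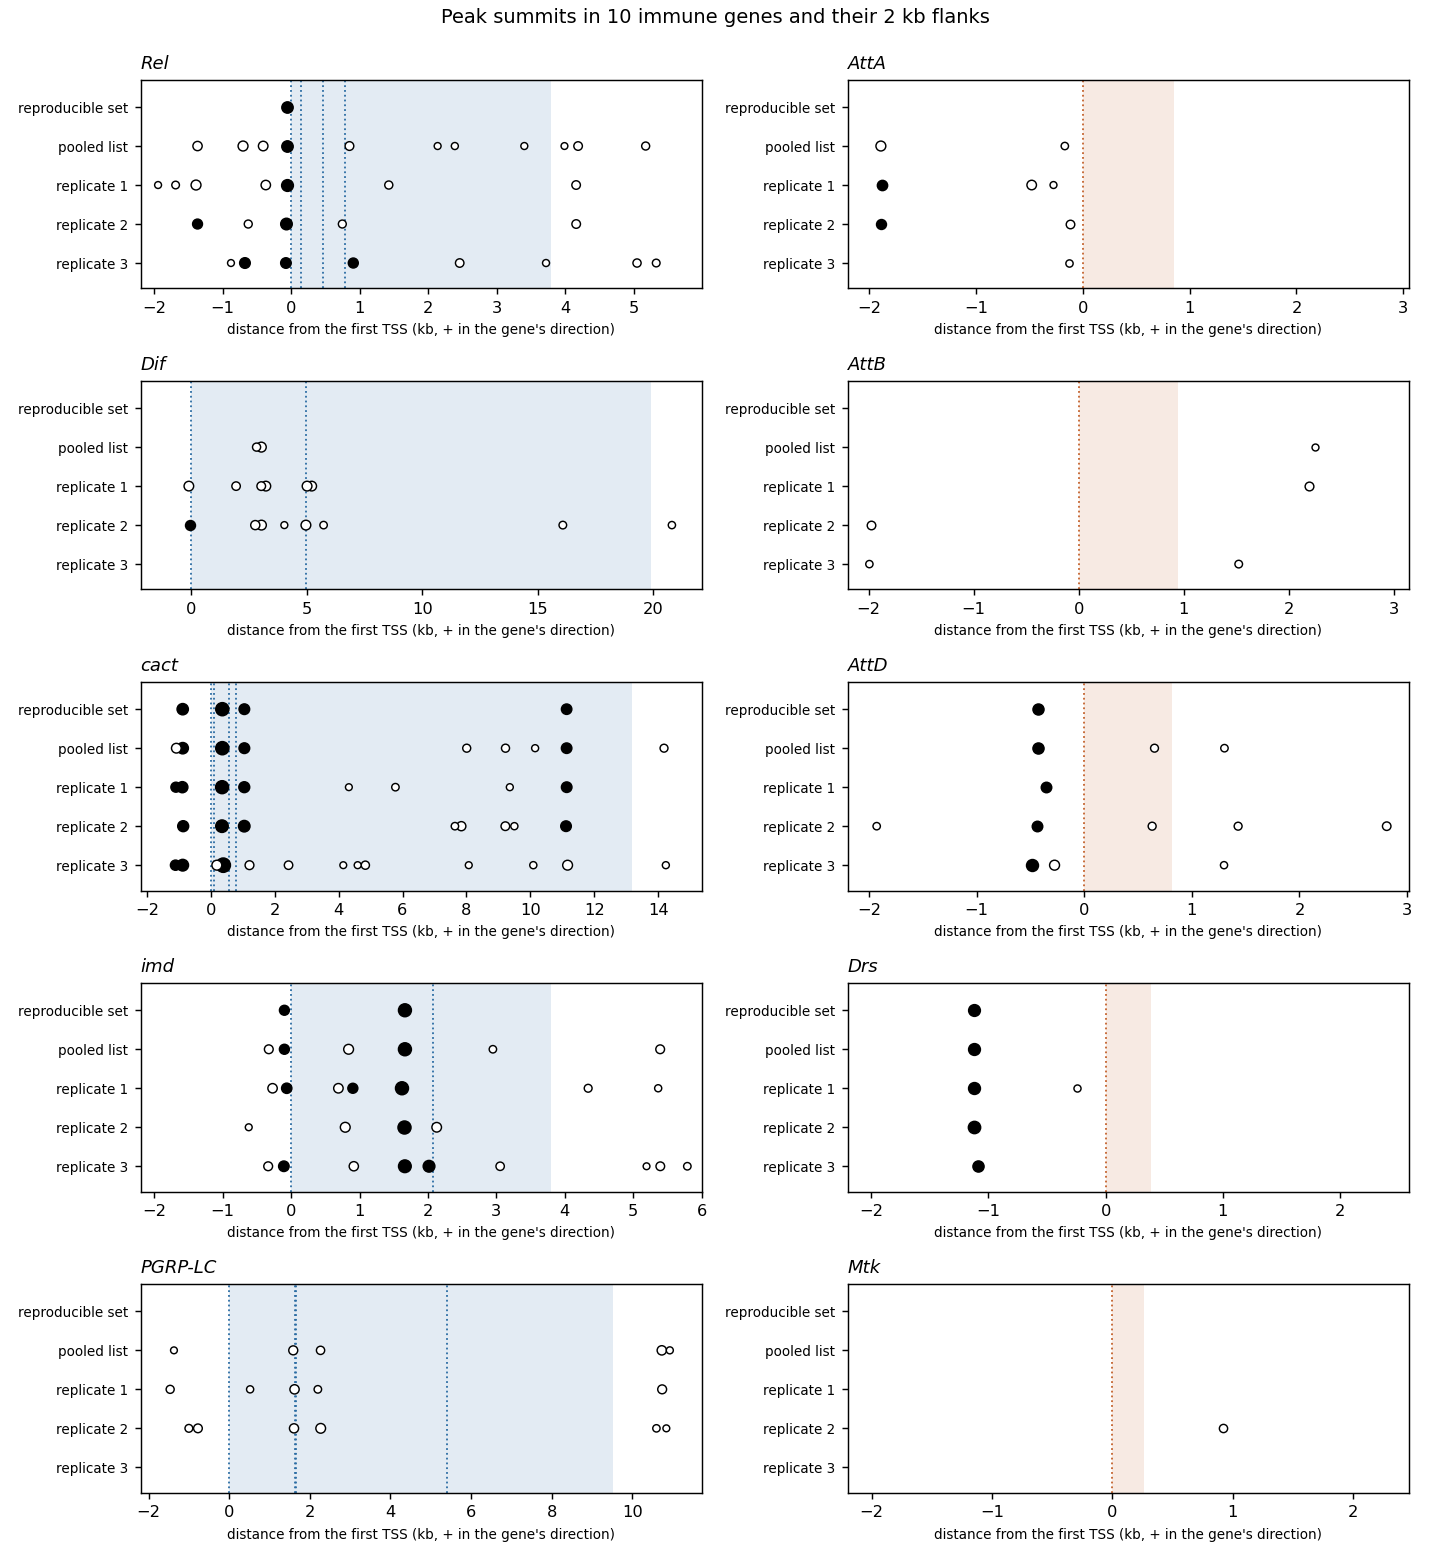
Summits of each peak list in the 10 genes (shaded, blue for pathway and orange for antimicrobial peptide genes) and their 2 kb flanks, by distance in kb from the first TSS (dotted lines mark every TSS). Filled points rank among the best 9708 of their list, larger points are stronger, and the rows of Rel, cact, imd, AttD and Drs show filled points in the reproducible set while those of the other 5 genes show none.

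Rel, the gene of Relish (FBgn0014018, 3R 9044183 to 9047977, minus strand, dm6), lies inside an intron of Nmdmc and has 4 annotated start sites. Its reproducible peak spanned 9047835 to 9048240, with the summit at 9048038, 61 bp upstream of the first start site. The pooled signal value was 502 (rank 4986 of 9708, close to the set's median of 519). The matched peak had a signal value of 164 in replicate 1 (rank 4151), 194 in replicate 2 (rank 4429) and 123 in replicate 3 (rank 7464). All 3 libraries thus held it among their best 9708 peaks, and replicate 3 ranked it lowest. The matched summits lay within 17 bp of the pooled one.

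The 250 bases before the first start site of Rel are shown because the summit falls in them. They are chr3R:9047978-9048227, minus strand, of RefSeq's Release 6 genome sequence, the source of every sequence shown here. Capitals mark the TATA box letters TATAAA and the GATA site AGATAA, searched on both strands.
Rel upstream: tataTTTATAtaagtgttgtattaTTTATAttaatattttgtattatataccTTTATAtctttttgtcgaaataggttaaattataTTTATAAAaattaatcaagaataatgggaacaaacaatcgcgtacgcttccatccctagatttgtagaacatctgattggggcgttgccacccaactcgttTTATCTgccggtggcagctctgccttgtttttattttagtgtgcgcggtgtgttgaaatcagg
The summit is base 190 of this stretch and lies in the GATA match that begins at base 188. The letters AGATAA were present in 10.2% of the windows of 100 bp to each side of all reproducible summits and in 3 of the 9 windows at the immune genes (Rel, AttD and Drs). GATA factors are known to bind at immune genes of the fat body, and a match of letters does not show a bound factor.

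Weaker pooled peaks surrounded this one. The next strongest had a signal value of 152.5 (rank 9825, just below the end of the reproducible set) and lay 30 bp upstream of a start site of Nmdmc and at -704 bp from the first start site of Rel, in the 5′ UTR of the divergent gene Mst85C. Its matched peak ranked 7138 in replicate 3, 19760 in replicate 2, and had no match within 200 bp in replicate 1. Replicate 3 also had a summit 128 bp downstream of the innermost start site of Rel (signal value 85.3, rank 9511), near which replicate 2 had a peak of rank 20226.

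cact, which encodes the inhibitor that holds Dorsal and Dif in the cytoplasm (FBgn0000250, 2L 16313036 to 16326207, minus strand), had the most and the strongest reproducible peaks of the 10 genes. Its strongest summit, at 16325847, had a signal value of 1042 (rank 1944) and lay between its 4 start sites, 222 bp upstream of one and 254 bp downstream of another. The matched peak had a signal value of 278 in replicate 1 (rank 2166), 293 in replicate 2 (rank 2771) and 486 in replicate 3 (rank 974). Here replicate 3 ranked the peak highest. A second summit of the same 1249 bp region, at 16325158 in the 5′ UTR and 262 bp downstream of the innermost start site, had 291 (rank 6977). It ranked 6339 and 4572 in replicates 1 and 2 and 15238 in replicate 3, outside that library's best 9708.

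The strongest cact summit with 100 bp to each side, chr2L:16325747-16325947, minus strand, is shown as the position of the highest signal value at these genes. It lies in an intron, and capitals mark GAGAG, the core letters bound by GAGA factor, on either strand.
cact summit: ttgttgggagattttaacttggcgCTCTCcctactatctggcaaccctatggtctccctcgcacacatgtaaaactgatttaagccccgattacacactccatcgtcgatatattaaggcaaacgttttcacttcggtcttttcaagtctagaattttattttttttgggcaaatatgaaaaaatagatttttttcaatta
GAGAG was present in 27.9% of the windows at all reproducible summits and in 3 of the 9 at the immune genes, both promoter summits of cact and the weaker one of imd.

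The 2 other reproducible summits at cact were farther from its start sites. One, at 16315072 in an intron 10348 bp downstream of the nearest cact start site, had a signal value of 244 (rank 7646) with matched peaks of rank 7477, 7020 and 10279 in replicates 1, 2 and 3. The other, at 16327087, lay at -880 bp from cact but 18 bp downstream of the start site of CG4278, in the 5′ UTR of that gene. It had a signal value of 493 (rank 5059) and ranks of 5675, 5925 and 4383 in the replicates. The flank of cact also takes in fzy, whose coding sequence held a weak pooled peak (43.3, rank 21018).

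Dif, the Toll-dependent NF-kappaB factor of the immune response (FBgn0011274, 2L 17413248 to 17433161, minus strand), had no reproducible summit in its 19914 bp or the 2 kb around them. The nearest was 17511 bp from a start site, and 88.7% of all protein-coding genes had a nearer one. The pooled list held 2 summits there, the stronger with a signal value of 145 (rank 10063, shortly below the end of the reproducible set) in an exon of lncRNA:CR44409 within a Dif intron. Replicates 1 and 2 had 6 and 8 summits at Dif and replicate 3 had 0. Both start sites of Dif had weak summits in the first pair of libraries. At the first start site the peak had a signal value of 28.3 in replicate 1 (rank 11159, at -107 bp) and 56.5 in replicate 2 (rank 9219, at -51 bp). At the second start site the values were 30.2 in replicate 1 (rank 10787, 50 bp downstream) and 46.2 in replicate 2 (rank 10288, with the summit at the start site itself). The pooled list had no summit within 500 bp of either. Of these peaks, the one in replicate 2 at the first start site was among its library's best 9708. The gene dl, which encodes Dorsal and lies near Dif, had no promoter peak either, with its nearest reproducible summit at 22901 bp.

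imd, the adaptor gene of the IMD pathway (FBgn0013983, 2R 18409796 to 18413599, minus strand), overlaps Dp1 on the other strand and has 2 start sites. Its stronger reproducible summit, at 18411936, had a signal value of 991 (rank 2173). The matched peak had 278 in replicate 1 (rank 2163), 357 in replicate 2 (rank 2033) and 340 in replicate 3 (rank 2557). The 3 libraries ranked this peak closely. It lay in an imd intron, 404 bp upstream of the inner imd start site but 91 bp upstream of a start site of Dp1. The summit that was nearest to imd itself, 98 bp upstream of the outer start site at 18413697, had a signal value of 162, rank 9502 and so near the end of the reproducible set. It ranked 8343 in replicate 1 and 7574 in replicate 3 and had no summit within 200 bp in replicate 2. Replicate 3 had a further strong summit 52 bp upstream of the inner start site (239, rank 4288), where replicate 2 had a weak one 60 bp downstream (41.7, rank 10847), and which the pooled list does not give as a summit of its own.

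PGRP-LC, the receptor gene (FBgn0035976, 3L 9338810 to 9348336, plus strand), had 4 start sites and no reproducible summit within 2 kb. The nearest lay 4902 bp upstream, and 71.4% of protein-coding genes had a nearer one. The pooled list held a weak summit 40 bp upstream of the second start site, with a signal value of 76.1 (rank 14315). It was matched in replicate 1 (21.95, rank 12804) and replicate 2 (31.6, rank 12938), and replicate 3 had no summit in the whole region of 13.53 kb. The strongest pooled summit in the region (95.3, rank 12570) lay 70 bp upstream of the neighbouring gene PGRP-LF. The reproducible summit nearest to PGRP-LC was that of its other neighbour, PGRP-LA, 424 bp upstream of that gene with a signal value of 475 (rank 5203).

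**Figure D2:**
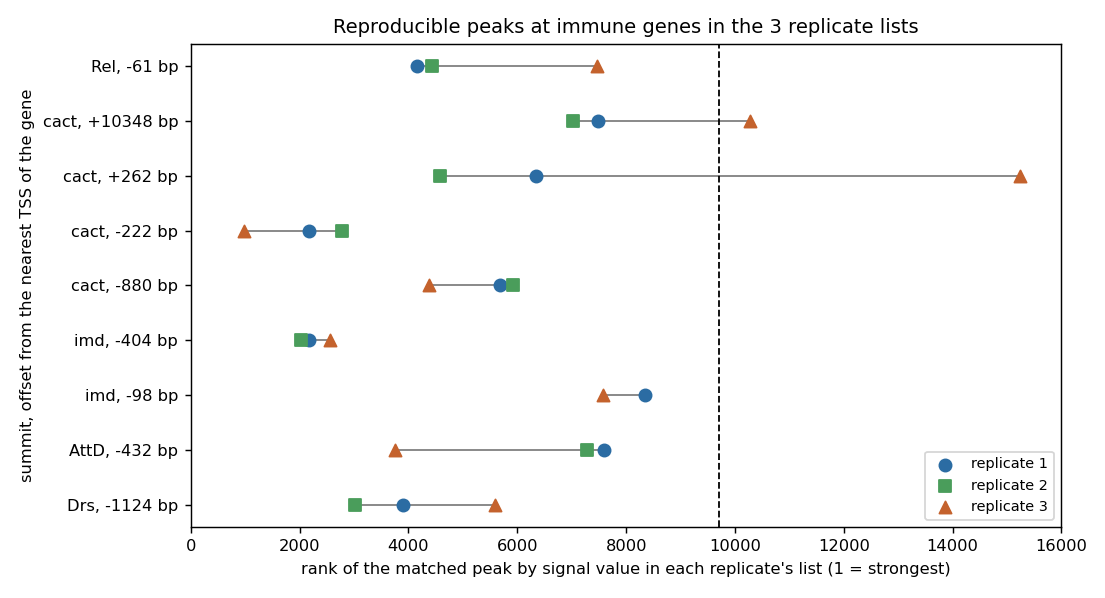
Rank by signal value of the peak matched within 200 bp in each replicate's list (x axis, 1 is the strongest) for the 9 reproducible summits at immune genes, named by gene and offset in bp from its nearest TSS. The dashed line marks rank 9708. Replicate 3 ranks below both others at Rel, Drs, the stronger imd summit and 2 cact summits, and above both at AttD and the 2 other cact summits, and the imd summit at -98 bp has no point for replicate 2.

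Among the effectors, AttD (FBgn0038530, 3R 17625268 to 17626086, plus strand) belongs to the attacins, glycine-rich peptides active against Gram-negative bacteria. Its promoter peak spanned 17624696 to 17625024, with the summit at 17624836, 432 bp upstream of AttD. That position is inside the transfer RNA gene tRNA:Thr-AGT-1-6 (17624806 to 17624879, minus strand), 43 bp from its start. The pooled signal value was 416 (rank 5678). The matched peak had 60.2 in replicate 1 (rank 7586), 87.9 in replicate 2 (rank 7273) and 267 in replicate 3 (rank 3760). Replicate 3 stood above the other libraries. The summits differed in position too, by 76 bp downstream in replicate 1, 10 bp upstream in replicate 2 (-10) and 49 bp upstream in replicate 3 (-49). The summits of replicates 1 and 3 thus fell just outside the transfer RNA gene, on opposite sides, and that of replicate 2 inside it. The region of replicate 3 held another summit at -276 bp from AttD (82.0, rank 9735), close below that library's best 9708. The transfer RNA gene has the same 74 bases as 7 of the 9 annotated tRNA:Thr-AGT genes, itself included, and 90.0% of the 50-base words of the peak occur once in the genome. No source used here says how reads matching several places were handled. The next summit inside AttD itself was weak (pooled signal value 42.75, rank 21251, in coding sequence).

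Drs encodes drosomycin, an antifungal peptide and the usual readout of Toll signalling (FBgn0283461, 3L 3369556 to 3369942, plus strand). It had no summit of the reproducible or pooled list within 500 bp of its start site. A reproducible peak lay 1124 bp upstream, spanning 3368295 to 3368577 with the summit at 3368432, in the intergenic sequence between kst and Drs. Its pooled signal value was 637 (rank 4016), which is the strongest at the peptide genes. The matched peak had 176 in replicate 1 (rank 3899), 275 in replicate 2 (rank 3016) and 182 in replicate 3 (rank 5587). All 3 libraries had it among their best peaks, with summits within 39 bp. The promoter itself held a trace in replicate 1 alone (8.06, rank 27115, 245 bp upstream).

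Both stretches at Drs are shown to set the bound upstream site beside the promoter without a peak. The first is the upstream summit with 100 bp to each side, chr3L:3368332-3368532, and the second the 250 bases before the start site, chr3L:3369306-3369555, both on the plus strand. Capitals mark TATAAA and, at the upstream site, the GATA letters AGATAA, on either strand.
Drs upstream summit: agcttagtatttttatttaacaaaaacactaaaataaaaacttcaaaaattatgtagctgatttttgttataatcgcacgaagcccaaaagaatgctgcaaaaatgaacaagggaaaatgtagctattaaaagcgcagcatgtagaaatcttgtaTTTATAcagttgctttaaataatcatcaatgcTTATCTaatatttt
Drs promoter: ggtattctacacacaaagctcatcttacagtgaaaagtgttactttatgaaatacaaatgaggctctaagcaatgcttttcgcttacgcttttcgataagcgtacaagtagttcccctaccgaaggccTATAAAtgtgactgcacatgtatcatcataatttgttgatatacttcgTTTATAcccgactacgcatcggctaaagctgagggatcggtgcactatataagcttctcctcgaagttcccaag
The GATA match at the upstream site begins at base 188, near the end of the stretch and away from the summit in its middle.

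AttA (FBgn0012042, 2R 14747362 to 14748215) and AttB (FBgn0041581, 2R 14749223 to 14750165) are neighbouring attacin genes on the plus strand, and neither had a reproducible summit within 2 kb. The nearest lay 5010 bp from the AttA and 3149 bp from the AttB start site, and 71.7 and 64.8% of protein-coding genes had a nearer one. At the AttA promoter the pooled list had a weak summit 167 bp upstream (34.8, rank 25048). The libraries had summits of 7.58 in replicate 1 (rank 28732), 23.7 in replicate 2 (rank 16148) and 20.5 in replicate 3 (rank 25703), at -273, -120 and -131 bp. Replicate 1 had a further summit at -477 bp (26.7, rank 11498). None of these was among its library's best 9708 peaks. A stronger pooled summit in the AttA flank (149, rank 9948) lay 139 bp upstream of jef, a gene on the other side of the peptide gene Dro, and was matched in replicates 1 and 2 (ranks 8317 and 9296) but not in replicate 3. AttB had no summit of any list within 500 bp of its start site. The genes share 61 of their 50-base words, and 92.4% of AttA and 93.2% of AttB words occur once in the genome, so most of both genes can be told apart by reads of that length.

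Mtk, which encodes the antifungal and antibacterial peptide metchnikowin (FBgn0014865, 2R 15408846 to 15409113, plus strand), lies within Stacl. It had no summit of the reproducible or pooled list within 2 kb, and the nearest of either was 15663 bp from its start site. Replicate 2 had 1 weak summit 924 bp downstream of the start site (21.25, rank 17981), in a 5′ UTR of Stacl, and replicates 1 and 3 had none.

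The distance from a start site to the nearest reproducible summit had a median of 222 bp over the 5 pathway genes (61 to 17511 bp) and 3149 bp over the 5 peptide genes (432 to 15663 bp). The median over all protein-coding genes was 482 bp, with an interquartile range of 53 to 6292 bp. The groups overlapped, since Dif and PGRP-LC were as far from a summit as the farther peptide genes. Rel was nearest, with 27.4% of protein-coding genes nearer to a summit, then imd at 98 bp (35.7%) and cact at 222 bp (44.2%), followed by AttD (49.4%) and Drs (54.8%).

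**Figure D3:**
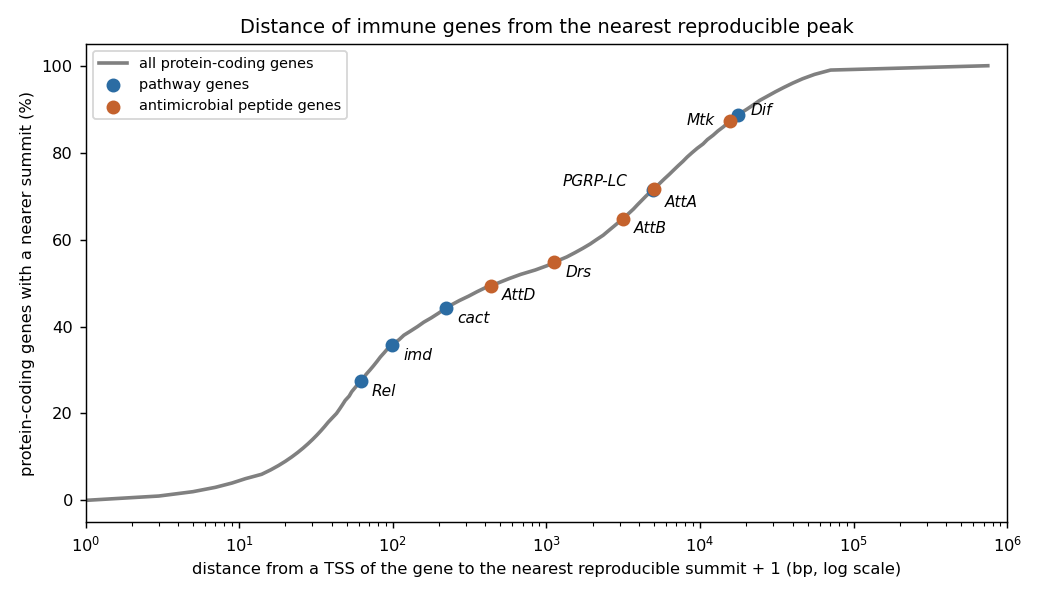
Distance in bp (log scale, 1 added) from a start site to the nearest reproducible summit against the percentage of protein-coding genes with a nearer summit, for all 13945 protein-coding genes (grey line) and the 10 immune genes (points, which lie on the line by construction). Rel, imd and cact lie lowest, at 61 to 222 bp, and Mtk and Dif highest, at 15663 and 17511 bp.

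Wider lists, 5 in all, place these genes in their pathways, and the lists share the 10 genes with them. Of 19 genes of IMD signalling inside the cell, 17 (89.5%) had a promoter peak, and of 12 genes of Toll signalling inside the cell 9 (75.0%), beside 50.3% of all protein-coding genes and 62.8% of those of 3 kb or more. The median length was 3591 bp for the IMD and 12842.5 bp for the Toll genes. When a summit counted only for the gene with the nearest start site, 15 IMD and 8 Toll genes kept a promoter peak, against 41.2% of all protein-coding genes. The median signal value of the strongest promoter peak was 1039 for the IMD and 1113 for the Toll genes that had one, compared with 834 over all protein-coding genes with one. All 17 and all 9 of these peaks were matched among the best 9708 peaks of all 3 replicates, as were 91.6% over all protein-coding genes. In the IMD list the strongest peak was nearer to another gene's start site at imd, Fadd, Dredd, Tab2, IKKbeta and POSH. Of these, imd, Fadd, Tab2 and POSH kept a promoter peak by the nearest start site through another summit. In the Toll list the strongest peak was nearer to another gene at pll. The lists were drawn up with earlier results of these data known, and no test was made over them.

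Among the IMD genes the strongest promoter peaks were at scny (3143, rank 18) and CYLD (2492, rank 64), which both encode deubiquitinases, and eff (2049, rank 189), a ubiquitin-conjugating enzyme. In replicates 1, 2 and 3 these peaks ranked 42, 25 and 14 at scny, 64, 83 and 243 at CYLD, and 114, 91 and 2198 at eff. The genes without one were dnr1 and pirk, which encode inhibitors of the pathway, and both had a reproducible summit within 2 kb. Among the Toll genes the strongest were Deaf1 (1688, rank 461), a transcription factor, pll (1579, rank 599), the kinase Pelle, and Pli (1379, rank 941), which encodes Pellino. The summit at pll was nearer to the start site of TfIIA-L, 25 bp upstream of that gene. Dif, dl and Tl had no promoter peak, and Tl, the receptor gene, had its nearest reproducible summit 1098 bp from a start site.

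Genes of recognition and of the extracellular cascade had a promoter peak in 4 of 23 cases (17.4%), beside 50.3% of all protein-coding genes. They were PGRP-LD (796, rank 3064), PGRP-LA (475, rank 5203) and spz (458, rank 5328), which encodes the Toll ligand, and PGRP-LE (319, rank 6652). The strongest summit at PGRP-LD was nearer to Myt1, 81 bp upstream of it, but another reproducible summit lay 79 bp from a PGRP-LD start site. When a summit counted only for the gene with the nearest start site, all 4 kept a promoter peak, against 41.2% of all protein-coding genes. The peaks at PGRP-LA and spz had no match within 200 bp in replicate 3. Among the genes without a promoter peak were GNBP1, GNBP2 and GNBP3, which encode binding proteins for microbial glucans and cell wall. GNBP2 and GNBP3 had a reproducible summit within 2 kb, that of GNBP3 518 bp from a start site. Such a summit was present at 9 of the 23 genes (39.1%), beside 65.8% of all protein-coding genes. Of 23 genes, 5 were shorter than 1 kb, and the median length was 1893 bp beside 2166 bp over all protein-coding genes.

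Of 22 antimicrobial peptide genes, all shorter than 1 kb, 4 had a promoter peak (18.2%, beside 24.7% of all protein-coding genes of that length). They were Drsl6 (552, rank 4615), Drsl5 (433, rank 5536), AttD (416) and Drsl4 (404, rank 5794), and 2 of them, Drsl4 and Drsl5, were the gene with the nearest start site. The summit at Drsl6 was 389 bp upstream of it and 53 bp upstream of kst. Drsl4, Drsl5 and Drsl6 encode relatives of drosomycin. AttA, AttB and AttC were among those without a promoter peak. A reproducible summit in the gene or within 2 kb was present at 10 of the 22 (45.5%), beside 39.7% of protein-coding genes shorter than 1 kb. Drs and Drsl1 to Drsl6, which are of the same family, were all among these 10. The promoter summits of Drsl4 and Drsl5, at 3315503 and 3316651 on 3L, are less than 2 kb apart. Neighbouring genes can therefore share a summit and are not independent. Of the 12 Bomanins, short secreted peptides induced through Toll, 0 had a promoter peak or a reproducible summit within 2 kb, and the median distance was 9528.5 bp, compared with 482 bp over all protein-coding genes. The share with a summit within 2 kb was 65.8% of all protein-coding genes and 39.7% of those shorter than 1 kb, as 10 of the 12 are. Most of them adjoin each other in 1 cluster and are not independent.

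**Figure D4:**
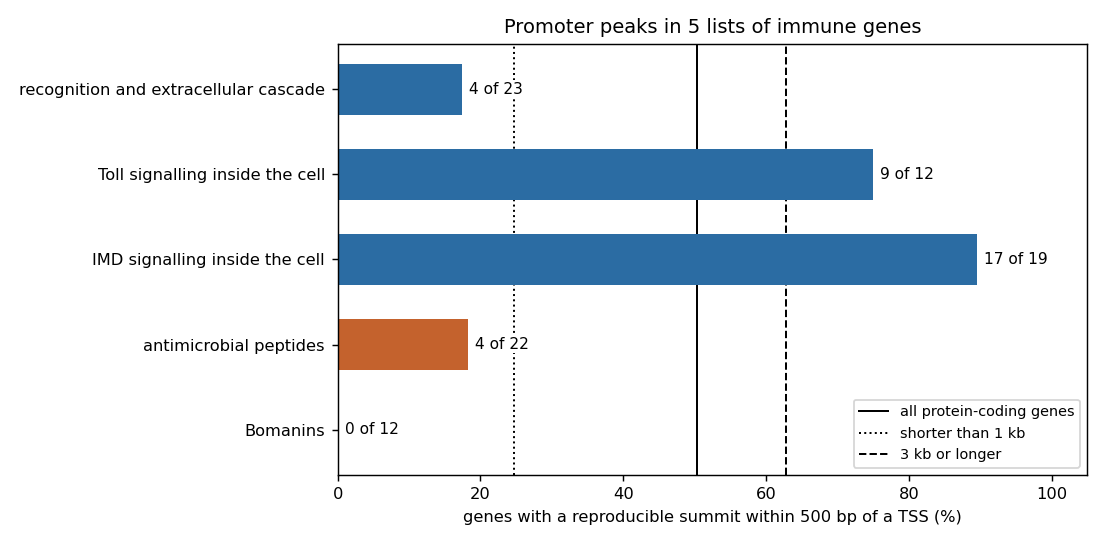
Percentage of genes with a reproducible summit within 500 bp of a start site in 5 lists of immune genes (bars, with counts), beside all protein-coding genes (solid line, 50.3%), those shorter than 1 kb (dotted, 24.7%) and those of 3 kb or more (dashed, 62.8%). The 2 lists of signalling inside the cell reach 75.0 and 89.5%, and the recognition, antimicrobial peptide and Bomanin lists lie at 0 to 18.2%.

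Promoter sequence was searched from 250 bp before to 50 bp after each of the 16 pathway and 5 peptide start sites. TATAAA was present on either strand at all 5 peptide genes and at 7 of 16 pathway start sites, beside 42.2% of 19607 promoters of protein-coding genes. GAGAG was present at 7 of 16 pathway and 2 of 5 peptide start sites (33.1% of all promoters). AGATAA was present at 5 of 16 pathway start sites, all of Rel and cact, and 1 of 5 peptide start sites (18.0% of all promoters). The pathway start sites with TATAAA belonged to 4 genes, as did those with GAGAG. Stretches searched at neighbouring start sites of a gene overlap, so the same letters can count more than once. TATCGATA, the DNA replication-related element, was present at 1 pathway start site, the inner one of imd (7.98% of all). GGTCACAC, the core of the promoter element called motif 1, was present at none (6.72%). GGGGATT, the 5′ part of the site bound by NF-kappaB factors, was at none of the 21 either (2.17% of all). The fuller kappaB consensus, which allows alternatives, was found at Mtk (2.18% of all). A missing match does not say that a gene lacks such a site, since other spellings and sequence farther upstream were not searched. At the 9 summits of the immune genes neither the replication-related element nor motif 1 was present (9.53 and 8.85% of windows at all reproducible summits). GGGGATT was present at 1 of the 9, the stronger imd summit, and in 1.29% of all such windows.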

How the data were processed

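Binding of tagged E(bx) was measured in 3 libraries of 1 group, grouped and numbered by the labels, with chromatin sheared to fragments of 200 to 800 bp. An anti-GFP antibody is named in the labels' description, but E(bx) in the field for the antibody. According to the deposited file records, a control entered peak calling and the reproducible set was made from the pooled and replicate lists. The aligner, the caller, its settings and the threshold were not given in the sources used here. The deposited signal value per peak was used for ranks and description. The deposited −log10 q-value was 4.39 for every peak of the reproducible set and ranked nothing.

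Summits were placed by adding the offset, which counts from 1, to the start. Gene models were those of Ensembl release 115 on the Release 6 sequence (dm6), without transposable elements. Listed symbols were all matched (0 left over). Counts, ranks and distances were computed with Python 3.11.15, numpy and pandas, and the counting was tested on simulated data. Peaks were matched within 200 bp. The dm3 lists were not used. Depth is unknown, so no counting interval is given. A sequence near AttD is not reported here. Replicates come from separate biosamples, and 1 group gives no comparison between groups. No test was made.

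The members and lists were chosen with earlier results of these data known. Genes named are the 10 members, of each wider list the 3 whose promoter peak was strongest and the alphabetically first 3 that lacked one, and neighbours of the peaks described. PGRP-LE and Drsl4 complete small counts and were added after their values were seen, as were weak peaks near other genes. Fadd, Dredd, Tab2, IKKbeta, POSH and Drsl1 to Drsl3 were also named after their values were seen. Alternatives were start site windows of 250 and 1000 bp, other flanks, the strongest 4854 peaks, each library's own best peaks, and leaving out a replicate, that is keeping reproducible peaks matched in both other libraries.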

Additional observations from a re-analysis of the deposited data

How the results depend on the processing

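The number of pathway genes with a promoter peak (3) stayed within 1.5 times under every alternative tried, and was 3 whichever replicate was left out. However, imd was counted through different summits. Without replicate 1 or without replicate 3 it counted only through the summit at -404 bp, which is nearer to a start site of Dp1. With the 250 bp window or the nearest start site only, it counted through the weak summit at -98 bp (rank 9502). The number of peptide genes with a promoter peak fell from 1 to 0 with a window of 250 bp, among the strongest 4854 peaks, and when a summit counted for the nearest start site only. The antimicrobial peptide list fell from 4 to 2 with the 250 bp window and with the nearest start site only, and to 1 among the strongest peaks. That list rose to 6 with the 1000 bp window and to 5 in the own best peaks of replicates 1 and 2. The recognition list fell from 4 to 1 among the strongest peaks and to 2 in the own best peaks of replicate 3. With a replicate left out it ranged from 2 to 4 (2 without replicate 1 or without replicate 2). It rose to 6 with the 1000 bp window and to 5 in the own best peaks of replicate 1. Pathway genes with a summit in or near the gene rose from 3 to 5 with a flank of 5 kb or with all pooled peaks. Their summits numbered 7 in the reproducible set, 15 with a flank of 5 kb, 4 with no flank, 2 among the strongest peaks, 33 with all pooled peaks, and 4 to 6 with a replicate left out, the 4 without replicate 1. Peptide genes with a summit numbered 2, and 1 with a flank of 1 kb, 4 with 5 kb, 0 with none, 1 among the strongest peaks and 4 with all pooled peaks. Their summits numbered 2, and 1, 6, 0, 1 and 7 in the same order. The median distance of the pathway genes from a summit was 222 bp, and 2748 bp among the strongest peaks, 98 bp with all pooled peaks and 222 to 404 bp with a replicate left out. It was 404 bp without replicate 1 and without replicate 3, where the imd summit at -98 bp, which had no match in replicate 2, was not kept. The standard deviation over the libraries' own best peaks was 22 bp. For the peptide genes the median distance was 3149 bp, and 5010 bp among the strongest and 1124 bp with all pooled peaks. The standard deviation over the libraries' own best peaks was 753 bp there. The count of 5 genes whose strongest summit was found in all replicates rests on a set made from those same replicate lists. That count, and the Toll, IMD and Bomanin counts, changed by less than 1.5 times under every alternative tried. Apart from the imd summit that was not kept, the causes of these changes were not tested, though shorter lists and narrower windows hold fewer summits by construction. No paired analysis was possible because there is 1 group. Reads per library are unknown, so a gene without a peak may have had a signal too weak for these libraries.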

Other observations

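The exact letters TATAAA at the usual place of a TATA box were counted after the promoter results had been seen, and no other spelling of the box was searched. TATAAA on the gene's own strand, beginning 40 to 20 bp before the start site, was present at 4 of the 5 peptide genes, AttA, AttB, AttD and Mtk, and not at Drs, which does not say that Drs lacks a TATA box. It was present at 3 of the 16 pathway start sites, 1 each of cact, imd and PGRP-LC. Over all protein-coding genes 6.80% of 19607 promoters had it. The share was 2.19% of 10997 promoters of genes with a promoter peak of tagged E(bx) and 12.7% of 8610 promoters of genes without one. The 4 peptide genes with it are AttA, AttB and Mtk, without a promoter peak, and AttD, whose peak lay in the transfer RNA gene. Of the 3 pathway start sites with it, that of cact had a reproducible summit 222 bp upstream and that of imd 98 bp upstream. The start site of PGRP-LC with it had no reproducible summit within 500 bp. No test of these shares was made.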
